A study of Sus scrofa with 10 samples.

Results

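The genome of the pig mitochondrion carries 37 genes, and all of them were listed among the 25880 genes of the count table (Ensembl identifiers ENSSSCG00000018060 to ENSSSCG00000018096, which follow the order of the genome). They were chosen by these identifiers, without a threshold on any count. By class they are 13 protein genes, 22 tRNA genes and 2 rRNA genes. In the RefSeq annotation of Sscrofa11.1, 28 lie on the plus strand of the mitochondrial sequence (12 protein, 14 tRNA and both rRNA genes), and these are called heavy-strand genes here. The other 9 lie on the minus strand and are called light-strand genes, namely ND6 and the tRNA genes of Gln, Ala, Asn, Cys, Tyr, Ser, Glu and Pro. The 13 protein genes carried a symbol in the gene name table, and 13 of 13 stood in the order of the RefSeq record. The 24 tRNA and rRNA identifiers carried none, so their names rest on that order. tRNA-Ser and tRNA-Leu each have a pair of genes, and tRNA-Ser is named by its strand.

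The RNA came from the Longissimus lumborum, the loin muscle, of 5 purebred Alentejano (AL) and 5 purebred Bísaro (BI) pigs, the main local breeds of Portugal. All 10 were castrated males kept free range on individually fed commercial diets, and the labels give 150 kg as carcass weight where the methods give it as the weight at slaughter. Each pig gave 1 library of stranded paired-end mRNA-seq, so that a pig is the replicate and breed is what the study compared. Values are reads counted per gene and divided by the size factor of the pig (normalised counts), and where 5 values are listed they follow the order AL44, AL46, AL49, AL52 and AL63, or BI25, BI34, BI36, BI37 and BI42.

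The mitochondrial genome is a small circle present in many copies in each mitochondrion. Both of its strands are read into long RNAs, which are cut at the tRNA genes between and beside the coding genes, and the products serve the respiratory chain: subunits of complexes I, III and IV and of the ATP synthase, with the rRNAs and tRNAs that translate them. The light-strand transcript runs for long stretches opposite heavy-strand genes, where it holds no gene and is known to be degraded, and slow oxidative fibres hold more mitochondria than fast glycolytic ones.

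Sequences are shown at 4 places where the counts of neighbours on opposite strands were far apart or where the breeds differed most. All are plus-strand RefSeq sequence of Sscrofa11.1, and each runs 20 bases past the part in capitals. The first, chrMT:8039-8149, holds in capitals the tRNA-Ser (light) gene (71 bases, minus strand). Between it and the end of COX1, whose last bases are taa, lie 3 bases. In the second, chrMT:14719-14775, capitals mark the 17 bases shared by ND5 (plus strand) and ND6 (minus strand). The third, chrMT:4923-5035, has the tRNA-Gln gene (73 bases, minus strand) in capitals, overlapping tRNA-Ile by 3 bases. The last, chrMT:6359-6464, has the tRNA-Cys gene (66 bases, minus strand) in capitals.
COX1 end and tRNA-Ser (light): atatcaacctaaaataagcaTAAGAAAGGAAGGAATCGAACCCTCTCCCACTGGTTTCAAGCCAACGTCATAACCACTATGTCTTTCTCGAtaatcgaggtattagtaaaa
ND5 end and ND6 end: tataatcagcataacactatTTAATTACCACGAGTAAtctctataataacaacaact
tRNA-Ile end and tRNA-Gln: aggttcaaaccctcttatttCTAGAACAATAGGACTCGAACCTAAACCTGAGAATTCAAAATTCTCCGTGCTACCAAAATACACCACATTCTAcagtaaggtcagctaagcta
tRNA-Cys: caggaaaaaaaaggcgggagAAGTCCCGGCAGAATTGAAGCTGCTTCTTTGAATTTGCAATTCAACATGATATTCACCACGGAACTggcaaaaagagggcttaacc

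The libraries held 2298045 to 3343194 counted reads (AL 2298045 to 3027364, BI 2461652 to 3343194), 27492226 in all, and 10 genes took 48.5% to 60.3% of them. The paper reports many times more sequenced reads per sample, nearly all of them aligned, so these counts cover a small part of each library. Why the other reads were not counted is not given in the sources used here. The 20 pairs of pigs within a breed differed by 9.73 to 48.98 times the sampling noise (chi-square over its degrees of freedom), so that each pig was counted as 1 sample. Skeletal muscle markers (7 of 10 with an identifier, among them ACTA1, CKM and TNNT3) had reads in every pig and summed to 18208 to 37155 normalised counts in AL and 32631 to 51488 in BI. Summed normalised counts were 6.47 to 28.4 for adipocyte, 2.20 to 16.7 for endothelial, 2.26 to 16.5 for red cell and 14.2 to 101 for fibroblast markers, where 3 reads are worth 2.47 to 3.39. The leukocyte markers summed to 244 to 389, nearly all of it CSF1R (mean 276), while CD68 had a mean of 26.7, the pan-leukocyte marker PTPRC 0.316, and CD3E was 0 in every pig. In bulk RNA, fewer cells of a type and less RNA per cell cannot be told apart.

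Across the 10 pigs 1435505 reads, 5.22% of those counted, fell on the genes of the mitochondrial genome. The share was 6.12%, 3.20%, 6.60%, 4.93% and 4.74% in AL and 5.68%, 6.69%, 3.95%, 4.85% and 5.78% in BI. It was lowest in AL46 (95% exact binomial interval 3.18% to 3.22%) and highest in BI34 (6.66% to 6.72%), and such intervals and the floors given here cover counting error only. The breeds overlapped, at 5.12% ± 1.33 for AL and 5.39% ± 1.03 for BI (SD, n = 5 each).

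The 9 light-strand genes held 1350823 of these reads (94.1%) and the 28 heavy-strand genes 84682 (5.90%). In single pigs the light-strand share was 88.6%, 94.997%, 95.3%, 92.7% and 95.3% in AL and 95.4%, 95.4%, 93.9%, 93.0% and 95.6% in BI. AL44 stood lowest, with an exact binomial interval of 88.4% to 88.7%, and the remaining pigs lay within 92.7% and 95.6%. By breed it averaged 93.4% ± 2.90 for AL and 94.7% ± 1.16 for BI (SD, n = 5 each).

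**Figure D1:**
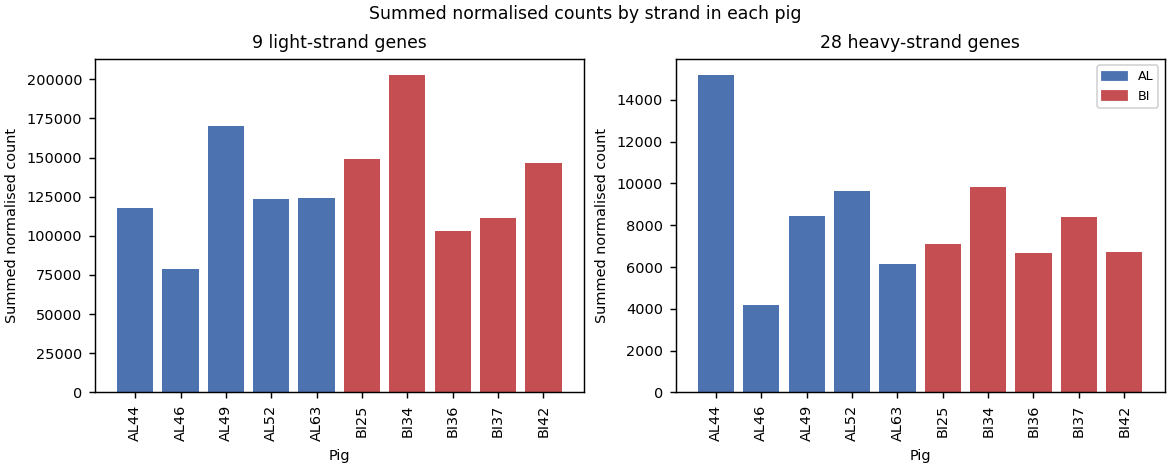
Normalised counts (y axis, linear from 0) summed over the 9 light-strand genes (left) and the 28 heavy-strand genes (right) in each of the 5 AL and 5 BI pigs (x axis), 1 bar per pig. The light-strand sums run from 79114 (AL46) to 202779.6 (BI34) and the heavy-strand sums from 4166 (AL46) to 15193 (AL44), with the breeds overlapping on both sides.

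A single pair of genes made up most of the light-strand reads. The tRNA-Ser (light) gene (ENSSSCG00000018076), whose tRNA carries serine, is 71 bases long and had a mean normalised count of 78889, the 6th highest of all genes, and its counts were 65168, 53176, 87428, 75559 and 82018 in AL and 81816, 124190.0, 67839, 69637 and 82053 in BI. ND6 (ENSSSCG00000018092, MT 14739 to 15266), the complex I subunit that is the sole protein gene of the light strand, had a mean of 52623, the 9th highest, with 51484, 24966, 81216, 45764 and 40998 in AL and 66096, 76432, 34525, 41011 and 63735 in BI. AL46 was lowest for both, BI34 was highest for tRNA-Ser (light) and AL49 for ND6, and the breeds overlapped for both. Together they held 87.9% (AL44) to 95.1% (BI42) of the mitochondrial reads of a pig.

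These genes were set against their opposite-strand neighbours within each pig. COX1 (ENSSSCG00000018075, MT 6511 to 8055), the core subunit of cytochrome c oxidase, ends 3 bases before tRNA-Ser (light), and tRNA-Ser (light) had 97.8 (AL44) to 160.5 (AL49) reads for each COX1 read. For each read of ND5 (ENSSSCG00000018091, MT 12935 to 14755), a proton-pumping subunit of complex I whose end ND6 overlaps, ND6 had 8.50 (AL44) to 42.6 (BI42). AL44 had the lowest ratio at both places. Summed over the strands there were 7.74 (AL44) to 21.8 (BI42) light-strand reads for each heavy-strand read.

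Per kilobase of gene, the mean normalised count of ND6 was 99664, against 76.3 (ATP8) to 1436 (COX3) for the 12 heavy-strand protein genes. The length-scaled mean of tRNA-Ser (light) was 1111107 per kilobase. This gene is shorter than a read (76 bases), so that scaling by its length sets it too high beside longer genes. A count here is of reads placed on the interval of a gene, and such a read need not come from the mature tRNA or mRNA. The strand setting of the counting is not given in the sources used here, so that RNA of a gene and RNA of the strand opposite it cannot be told apart in these counts. This limit holds for every gene and marker count given here. The same count table holds muscle genes of the nucleus with a much higher neighbour on the opposite strand: ATP2A1, the calcium pump of fast fibres, had 10.8 to 16.8 reads for each 1000 of RABEP2, ACTN3, the actinin of fast fibres, had 6.72 to 13.2 for each 1000 of CTSF, and TPI1, a glycolytic enzyme, 1.94 to 3.74 for each 1000 of SPSB2.

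**Figure D2:**
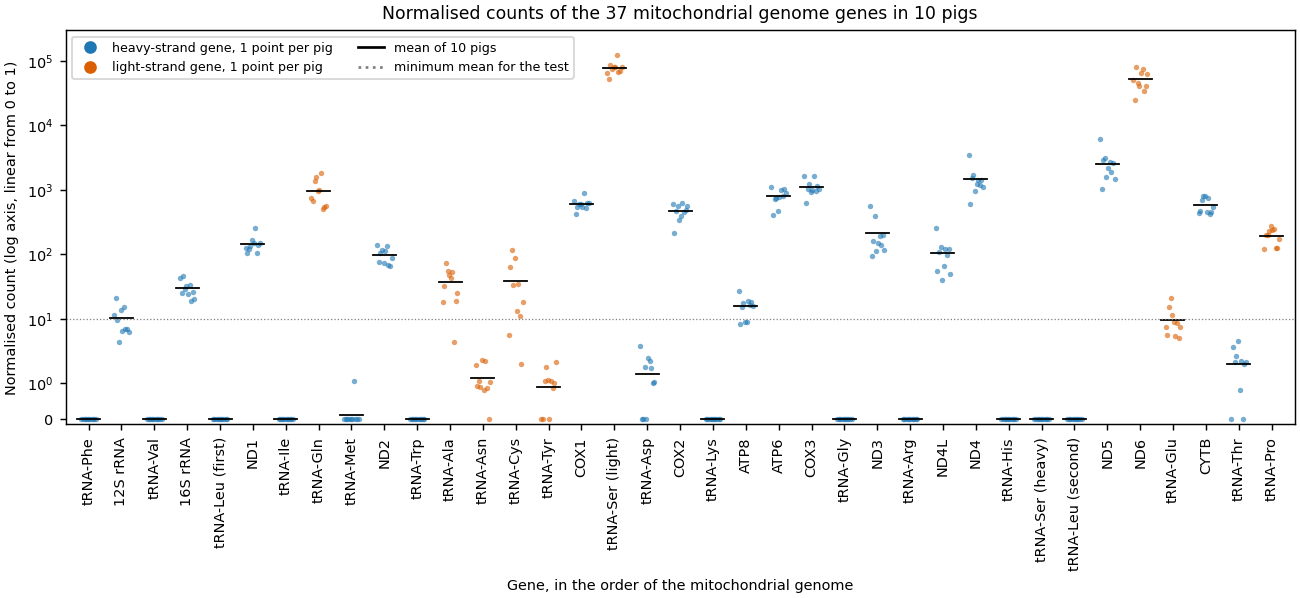
Normalised counts (y axis, logarithmic, linear between 0 and 1) of the 37 genes in the order of the mitochondrial genome (x axis), 1 point for each of the 10 pigs, blue for heavy-strand and orange for light-strand genes, with the mean as a black bar and the minimum mean of 10 for the test as a dotted line. tRNA-Ser (light) with a mean of 78889 and ND6 with 52623 stand above the other 35 genes, the highest of which is ND5 with 2556, and 11 heavy-strand tRNA genes lie at 0 in every pig.

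The 22 tRNA genes split by strand. All 8 light-strand tRNA genes had reads (815503, or 56.8% of the mitochondrial reads), while the 14 heavy-strand tRNA genes had 36 reads between them. Of those 14, tRNA-Thr had 20 reads, tRNA-Asp 15 and tRNA-Met 1, and 11 (Phe, Val, both Leu genes, Ile, Trp, Lys, Gly, Arg, His and Ser of the heavy strand) had none. A count of 0 in 27492226 reads allows a share of up to 1.09e-05% for each of the 11.

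Light-strand tRNA genes are described here by the distance to the next gene of their own strand, a grouping made after the levels were seen. The 3 with no such gene within 100 bases (1187 to 1549 bases to the nearest) had the highest means, 78889 for tRNA-Ser (light), 979 for tRNA-Gln and 194 for tRNA-Pro. The 5 that abut, overlap or lie 1 base from a light-strand gene had means of 38.4 (tRNA-Cys), 37.1 (tRNA-Ala), 9.65 (tRNA-Glu), 1.20 (tRNA-Asn) and 0.907 (tRNA-Tyr). Each of the 14 heavy-strand tRNA genes abuts a gene of its own strand with 0 bases between. How reads that cover more than 1 gene were counted is not given in the sources used here, and the part of spacing in these levels was not tested.

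Among the light-strand tRNA genes below tRNA-Ser, the counts of tRNA-Gln (MT 4943 to 5015), for glutamine, were 762, 667, 1397, 1579 and 968 in AL and 997, 1813, 499, 539 and 571 in BI. Those of tRNA-Pro (MT 16550 to 16613), for proline, were 119.9, 203, 201, 228 and 271 in AL and 239.7, 248, 128, 126 and 175 in BI. BI34 was highest for tRNA-Gln and AL63 for tRNA-Pro, BI36 was lowest for the former and AL44 for the latter, and both genes overlapped between the breeds.

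In the cluster of adjoining light-strand genes, tRNA-Ala (MT 6203 to 6270), for alanine, had counts of 17.9, 32.5, 73.4, 54.3 and 47.5 in AL and 42.8, 54.0, 4.31, 19.0 and 25.4 in BI. Counts of tRNA-Cys (ENSSSCG00000018073, MT 6379 to 6444), for cysteine, were 5.66, 63.2, 115, 33.8 and 87.1 in AL and 13.2, 34.1, 11.2, 2.004 and 18.0 in BI. tRNA-Cys was the most variable of the tested genes (coefficient of variation 99.6% over 10 pigs, against 20.3% for COX1, the least variable), and AL46, AL49 and AL63 lay above every BI pig while AL44 lay below all but BI37. tRNA-Asn had 0 to 2.26 normalised counts in a pig, tRNA-Tyr 0 to 2.11 and tRNA-Glu, next to ND6, 5.01 to 21.3. These 3, with tRNA-Thr (0 to 4.52), tRNA-Asp (0 to 3.78) and tRNA-Met (0 in 9 pigs), had means under 10 and stayed out of the main comparison. With no filter on low values all 26 genes with reads were compared by limma, and 0 differed (lowest adjusted p = 0.153), against 0.272% of all genes (40 of 14681).

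The rRNA genes, which code for the RNAs of the mitochondrial ribosome, had 408 reads in all, 0.0284% of the mitochondrial reads. For 12S rRNA (MT 1246 to 2205) the counts were 11.3, 21.4, 9.71, 4.45 and 13.6 in AL and 6.59, 15.4, 6.90, 7.02 and 6.34 in BI. Counts of 16S rRNA (MT 2274 to 3844) were 42.5, 25.1, 46.4, 29.4 and 32.8 in AL and 24.7, 33.0, 19.0, 26.1 and 20.1 in BI. AL46 was highest for 12S rRNA and AL49 for 16S rRNA, and the breeds overlapped for both. At 10.7 and 19.0 normalised counts per kilobase, both genes lay below the lowest protein gene.

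By class, tRNA genes held 57.4% ± 7.34 of the mitochondrial reads of AL pigs and 57.6% ± 3.88 of those of BI pigs (SD, n = 5 each). Protein genes held 42.6% ± 7.35 in AL and 42.4% ± 3.89 in BI. For rRNA genes the share was 0.0377% ± 0.0115 in AL and 0.0222% ± 0.00391 in BI, where AL ran from 0.0254% to 0.0558% and BI from 0.0172% to 0.0276%, so that these too overlapped.

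Counts of the heavy-strand protein genes are given by complex, in genome order within each. Of complex I, which takes electrons from NADH, ND1 had 124, 105, 123, 135 and 165 in AL and 149.9, 252.2, 103, 140.3 and 151 in BI. ND2 had 141, 75.3, 107, 116 and 73.5 in AL and 112, 135, 69.0, 65.1 and 87.7 in BI. ND1 was highest in BI34 and ND2 in AL44, and the breeds overlapped for both.

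Further along the genome, ND3 had 559.8, 94.8, 159.7, 389 and 114 in AL and 149, 195, 142, 198 and 116 in BI. ND4L, whose end overlaps the start of ND4 by 7 bases, had 261, 54.8, 109, 128 and 40.7 in AL and 65.1, 120.1, 96.5, 123 and 49.6 in BI. AL44 was far above the other pigs for both genes, with AL52 next, and the other 3 AL pigs lay among the BI pigs or below them.

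ND4 had 3495, 597, 1511, 1727 and 978 in AL and 1224, 1451, 1177, 1438 and 1099 in BI. ND5, the highest of the heavy-strand genes, had 6057, 1019, 2897, 3127 and 1580.1 in AL and 2193, 2689, 1885, 2615 and 1496 in BI. For ND4 3 AL pigs lay above every BI pig and the other 2 below every BI pig, and the SD was 1117 in AL against 159 in BI. For ND5 the same 3 AL pigs lay above every BI pig, and AL46 was lowest.

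The only mitochondrially encoded subunit of complex III is CYTB (MT 15342 to 16481), which had 445, 474, 699, 797 and 793 in AL and 459.6, 762, 416, 447 and 551 in BI. AL52 and AL63 lay above every BI pig, and only BI36 lay below AL44.

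Cytochrome c oxidase, complex IV, has 3 subunits from this genome. COX1 had 667, 428, 545, 600.4 and 609 in AL and 551, 904, 534, 627 and 619 in BI. COX2 had 611, 214, 478, 553 and 337 in AL and 399, 632, 452, 486 and 556 in BI. COX3 had 1655, 637, 1028, 1256 and 913 in AL and 1002, 1616, 946, 1165 and 1043 in BI. BI34 was highest for COX1 and COX2 and AL44 for COX3, AL46 was lowest for all 3, and the breeds overlapped.

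Of the ATP synthase, the membrane subunit ATP6 had 1094, 409.9, 717, 755 and 473 in AL and 770.1, 980.3, 814, 1019 and 905 in BI. ATP8, which shares 43 bases with ATP6, had 27.4, 8.37, 15.1, 17.8 and 9.05 in AL and 9.06, 18.7, 16.4, 18.0 and 15.8 in BI. AL44 was highest for both genes and AL46 lowest, so that AL spanned the whole range of BI.

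AL44 therefore ranked highest over most of one stretch of the genome, a stretch picked out after the values were seen and described here without a test. It was the highest of the 10 pigs for 7 of the 8 protein genes from COX2 to ND5 (BI34 was higher for COX2) and for 1 of the other 12 tested genes (ND2). Against the median of the other 9 pigs its count was 3.76 times as high for ND3, 2.86 for ND4, 2.76 for ND5, 2.70 for ND4L and 1.28 for COX2, the lowest of the 8. For the other 12 genes it was 0.168 (tRNA-Cys) to 1.63 times (16S rRNA), and for the 6 tested light-strand genes 0.168 to 1.12 times. The ratios of COX2, ATP6 (1.42) and COX3 (1.61) lay below that of 16S rRNA. Only those of ATP8 (1.73), ND3, ND4L, ND4 and ND5 lay above every gene outside the stretch.

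Over all 3566 genes tested, AL44 was the highest pig in 17.5%, its median ratio to the other 9 pigs was 1.02, and the ratio was above 2 in 7.38%. Beside this, AL44 had the fewest counted reads, the lowest summed skeletal muscle markers (18208) and the lowest summed fast fibre markers (13633, against up to 24230 in AL and 20835 to 32146 in BI). These lists share TNNT3, TNNI2 and TNNC2, so that their sums are not independent. The slow fibre markers of AL44, at 1078, were the 2nd highest of the 10 (AL 761 to 1449, BI 447 to 797). At the nuclear opposite-strand neighbours, AL44 had 10.8 ATP2A1 reads for each 1000 of RABEP2, where the other pigs had 11.2 to 16.8. It had 7.02 for ACTN3 and 2.06 for TPI1, within the range of the others but 9th of the 10 pigs for both. The part of these measures in the level of the mitochondrial genes was not tested.

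AL46 stood at the other end of the same stretch. It was the lowest pig for 7 of the 8 genes from COX2 to ND5 (AL63 was lower for ND4L), and for 10 of the 20 tested genes, where over all genes it was lowest in 13.5%. For ND5 its count was 0.390 times the median of the other 9. For tRNA-Cys it was 3.52 times and for 12S rRNA, on 23 reads, 3.05 times. At the nuclear opposite-strand neighbours AL46 had the highest values for ACTN3 (13.2 for each 1000 of CTSF) and TPI1 (3.74 for each 1000 of SPSB2). For ATP2A1 it had 16.7 for each 1000 of RABEP2, where AL63 had 16.8. The part of these measures in its mitochondrial counts was not tested.

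**Figure D3:**
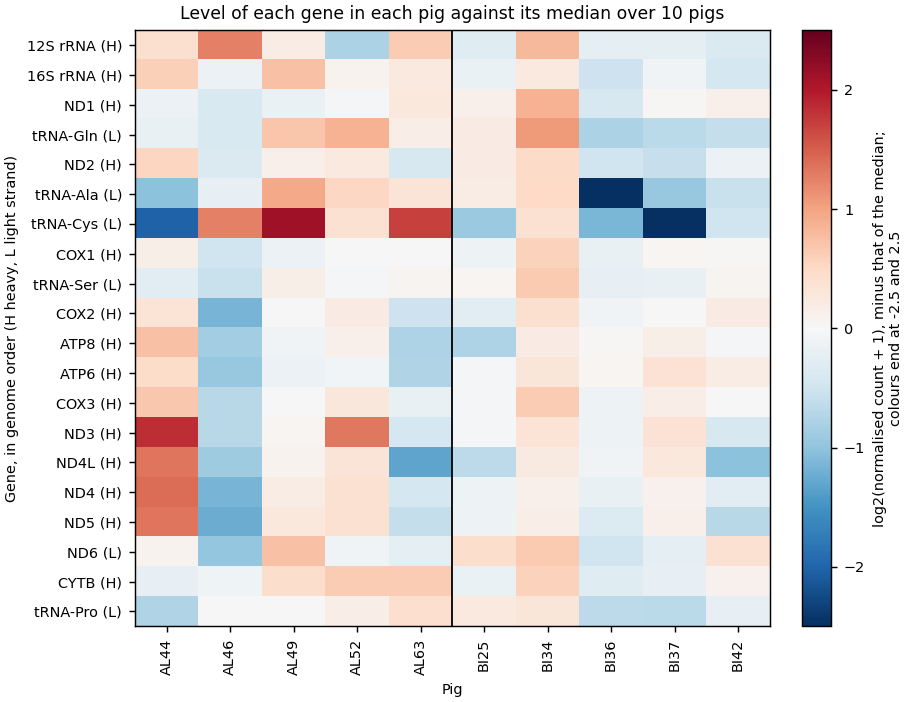
Difference of log2(normalised count + 1) from the median of the 10 pigs (colour) for the 20 tested genes in genome order (y axis, H heavy and L light strand) in each pig (x axis, AL left of the line and BI right). AL44 is red from ATP8 to ND5, with ND3 at 3.76 times the median of the other pigs, and AL46 is blue there, with ND5 at 0.390 times.

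AL and BI pigs were compared by limma, using log2(normalised count + 1), for every gene with a mean of at least 10 over the 10 pigs, which 20 of the 37 genes passed (all 13 protein genes, both rRNA genes and the tRNA genes Gln, Ala, Cys, Ser (light) and Pro). 12S rRNA (mean 10.3) was just above this minimum and tRNA-Glu (9.65) just below. With p-values adjusted over all 3566 genes, 0 of the 20 differed between AL and BI, against a background of 0.028% (1 of 3566 genes). At an unadjusted p under 0.05, limma gave 1 of the 20, against 8.55% of all genes (305), and the exact permutation test 0 of the 20, against 7.94% (283). DESeq2 called 48 of the 3566 genes (1.35%) and edgeR and limma-voom 1 gene each, with 0 of the 20 by any of these tools. Without AL44, limma called 40 of 3552 genes (1.13%), and 0 of the 20.

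Of the 20 log2 differences (AL minus BI), 12 were above 0, with a median of 0.15, where 47% of all genes tested were above 0 and their median was -0.02. The count of 12 became 9 without AL44 (48.0% of all genes) and 14 without AL46 (47.5%). For the 6 light-strand genes 4 were above 0, with a median of 0.28, and for the 12 heavy-strand protein genes 6, with a median of 0.02. In none of the 20 genes were the breeds without overlap, which held for 1.71% of all genes (61).

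The largest difference was that of tRNA-Cys, with means of 61.0 ± 43.2 for AL and 15.7 ± 11.8 for BI (SD, n = 5 each). Its log2 difference was 1.76 (SE 0.74, 95% interval 0.18 to 3.34), with a limma p of 0.0317 and an adjusted p of 0.502. The exact two-sided permutation test gave p = 0.0714 (0.670 adjusted over all genes), where the smallest p that 5 pigs against 5 allow is 0.00794. Over the alternatives tried the difference ran from 1.23 to 2.43 and its adjusted p from 0.0555 (without AL44) to 0.806. Of the 76-base stretches that touch this gene, 46.1% occur identically in the nuclear genome.

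Differences of the other light-strand genes were smaller or less certain by limma. tRNA-Ala, in the same cluster as tRNA-Cys, differed by 0.85 (SE 0.55, adjusted p = 0.727). The difference was 0.39 for tRNA-Gln and 0.17 for tRNA-Pro. For the abundant tRNA-Ser (light) it was -0.21 (SE 0.19, adjusted p = 0.806) and for ND6 -0.24 (SE 0.29, adjusted p = 0.871), with 95% intervals of -0.62 to 0.19 and -0.86 to 0.37.

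On the heavy strand, 16S rRNA had the highest difference, 0.49 (SE 0.24, adjusted p = 0.619), with means of 35.2 ± 8.95 for AL and 24.6 ± 5.61 for BI (SD, n = 5 each). Its exact permutation p of 0.0635 was the lowest of the 20 genes (0.649 adjusted over all genes). 12S rRNA differed by 0.40 (SE 0.40, adjusted p = 0.831) in limma. The lowest difference was that of ATP6, -0.46 (SE 0.23, adjusted p = 0.618), with means of 689.9 ± 271 for AL and 898 ± 106 for BI (SD, n = 5 each) and a 95% interval of -0.95 to 0.03. None of these passed the threshold, and the intervals leave differences in either direction possible.

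The subunits of complex I lay on both sides of 0, with log2 differences of -0.24 for ND1, 0.14 for ND2, 0.40 for ND3, 0.16 for ND4L, 0.14 for ND4 and 0.20 for ND5. Those of ND4L, ND4 and ND5 turned to -0.19, -0.19 and -0.12 without AL44. CYTB stood at 0.27. Complex IV and the ATP synthase lay below 0, at -0.17 for COX1, -0.28 for COX2, -0.12 for COX3 and -0.09 for ATP8, of which COX3 turned to 0.06 and ATP8 to 0.08 without AL46. COX3 also turned (0.01) without BI34, ND4L (-0.03) without BI42 and ATP8 (0.06) without AL63, and ATP8 lay at or just above 0 (0.0019 to 0.015) when scaled by total reads or tested with limma-voom, edgeR or DESeq2. Their adjusted p-values by limma ran from 0.766 (CYTB) to 0.957 (ATP8).

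**Figure D4:**
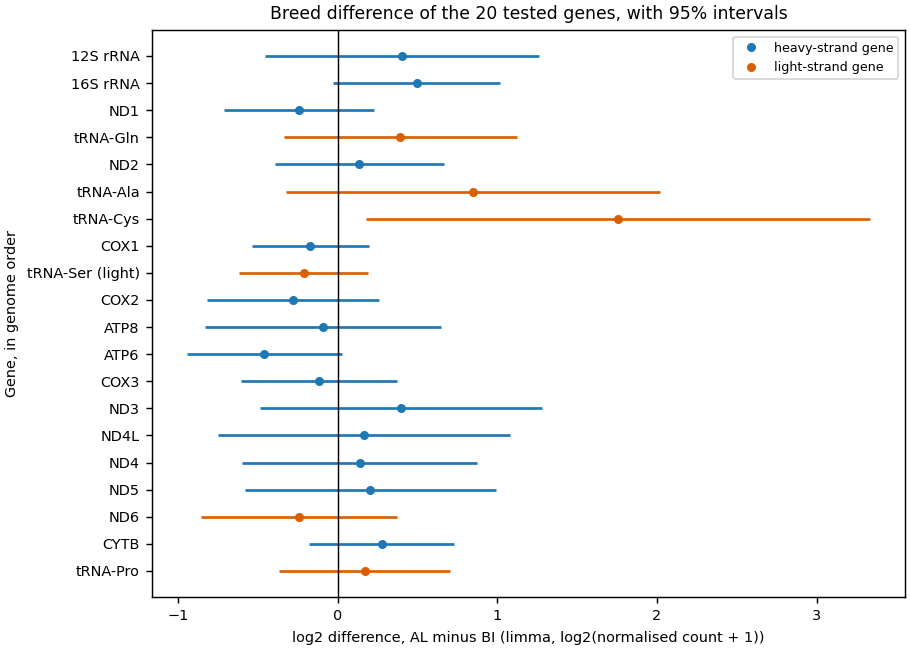
Log2 difference of AL minus BI (x axis, limma on log2(normalised count + 1)) for the 20 tested genes in genome order (y axis), with points for the estimates and bars for the 95% intervals, blue for heavy-strand and orange for light-strand genes. The interval of tRNA-Cys (0.18 to 3.34) is the only one that leaves out 0, at an adjusted p of 0.502, and the others span 0.

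Nuclear copies of mitochondrial sequence could share reads with these genes. In the same assembly, 26 of the 37 genes had at least 1 stretch of 76 bases that occurs identically in the nuclear genome (118 alignments in all). The share of such stretches was 0% for tRNA-Ser (light), COX3, ND4, ND5 and CYTB, 0.332% for ND6 and 0.132% for ATP6. It reached 25.7% for COX2, 26.3% for COX1, 30.3% for 16S rRNA, 38.1% for ND1, 48.7% for 12S rRNA and 78.4% for tRNA-Gln, so that the counts of these genes are uncertain. Among the heavy-strand tRNA genes without reads the share ran from 0% (tRNA-Gly) to 88.2% (tRNA-Ile), and its part in those zero counts was not tested. How reads with more than 1 placement were treated is not given in the sources used here.

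The nuclear genes that copy, transcribe and process the mitochondrial genome were read from the same fit. Of 53 such genes 49 had an identifier, 17 were tested and 0 differed (limma, adjusted over all genes), with 1 at an unadjusted p under 0.05 (8.55% of all genes), 8 above 0 (47% of all genes) and a median log2 difference of -0.07 (-0.02 over all genes). The 3 with the smallest p are given by rule, and the first was FASTK, whose mitochondrial form is known to act on ND6 RNA, with 96.2 ± 29.8 for AL and 181 ± 76.1 for BI (SD, n = 5 each) and a log2 difference of -0.83 (adjusted p = 0.418). The next were PTCD3, of the small mitochondrial ribosomal subunit, and PTCD2, at 0.53 and 0.42. The highest mean was that of FASTKD1, at 1084 in AL and 1291 in BI.

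The nuclear subunits of the respiratory chain and ATP synthase, which join the mitochondrially encoded ones, showed 0 differences among 21 tested of 74 named (54 with an identifier), with 0 at an unadjusted p under 0.05 where all genes had 8.55%, 14 above 0 where all genes had 47%, and a median of 0.05 against -0.02 over all genes. The smallest p-values belonged to NDUFA10, ATP5F1D and NDUFA9, with log2 differences of 0.49 (adjusted p = 0.649, limma), 0.52 and -0.52. NDUFB10, a complex I subunit, had the highest mean, 75792 in AL and 65742 in BI, where NDUFA10 had 25.3 and 17.8. Whether the NDUFB10 reads came from its own RNA or from the opposite strand was not tested.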

How the data were processed

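Longissimus lumborum RNA of 5 AL and 5 BI pigs was examined, mapped to breed through the animal names in the labels. For trimming the authors used Trim Galore 0.5.0, for alignment HISAT2 2.1.0 with the Sscrofa11.1 assembly (Ensembl release 94), and for gene counts HTSeq 0.11.1. Deposited by the authors as a signal per pig is each count after division by that pig's DESeq2 size factor. Dividing by the value of 1 read gave whole reads for 100% of values in every pig (tolerance 0.001). The deposited table also holds a mean over pigs and the authors' fold changes and p-values, which were not used. Of 25880 identifiers 14857 were paired with a symbol.

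Genes with a mean of at least 10 were tested with limma 3.58.1 (R 4.3.3) on log2(normalised count + 1), with intensity trend, no covariate and Benjamini-Hochberg adjustment over 3566 genes (threshold 0.05). This minimum does not look at breed and differs from the study's, which was 50 reads per group. Read as a sum of 50 in each breed, the latter leaves 3315 genes and 19 of the mitochondrial genes, without 12S rRNA, and was an alternative. Exact two-sided permutation tests used all divisions of the pigs into 5 and 5. Recovered reads were also tested with edgeR 4.0.16, DESeq2 1.42.0 and limma-voom. Other pseudocounts, filters and scalings were tried. Leaving each pig out of the exact test was an alternative chosen after seeing the data. Genome positions and sequences are from the RefSeq annotation of Sscrofa11.1, and nuclear copies were sought with BLAST 2.17.0. On simulated data (AL against BI, 3566 genes, 200 changed) limma found 100% of genes shifted by a log2 of 2 and 49% of genes shifted by 1, with 7 false calls. Each simulated gene had the same spread between pigs (dispersion 0.0851), so that these rates need not hold for genes that vary more. All 37 mitochondrial genes are described, with values in every pig for protein and rRNA genes and for tRNA genes with a mean of at least 10, and of the other lists the 3 genes with the smallest p and the highest gene. The genes and lists were chosen with earlier results of these data known. The labels give no batch. Summaries used Python 3.11.15 with pandas 2.3.3, numpy 2.4.6 and scipy 1.17.1, and plots matplotlib 3.10.9.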

Additional observations from a re-analysis of the deposited data

Results flagged for a closer look

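One pig, BI34, lay far from the other 4 BI pigs in 4 measures, each with a gap to the nearest pig that exceeded 0.71 of the range of the breed (Dixon's ratio). The normalised count of 12S rRNA was 15.4 in BI34 and 6.34 to 7.02 in the others. For COX1 it was 904 in BI34 against 534 to 627. tRNA-Ser (light) reached 124190 in BI34, where the others had 67839 to 82053. NDUFA10, a nuclear subunit of complex I, had 26.4 in BI34 and 14.0 to 17.0 in the others. In all, 66 groups of 5 pigs were examined, and chance marks about 1 in 20.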

How the results depend on the processing

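The count of mitochondrial genome genes that differed between the breeds stayed at 0 under every alternative, as did those of the nuclear machinery and respiratory chain lists, and with each pig left out. Over all genes the count of 1 became 2 with a pseudocount of 10, 0 with both breed means at 50 or more (limma, 1513 genes, 112 at an unadjusted p under 0.05), 40 with no filter and 48 with DESeq2, and 1 to 40 with 1 pig left out (40 without AL44). Of 411 alternative log2 differences of the 20 tested genes 12 changed sign, in 5 genes. ATP8 (-0.09) became 0.0019 with the total of counted reads, 0.0098 with limma-voom, 0.015 with edgeR and 0.0098 with DESeq2. With 1 pig left out ATP8 ran from -0.32 to 0.084, COX3 from -0.28 to 0.062, ND4L from -0.19 to 0.47, ND4 from -0.19 to 0.44 and ND5 from -0.12 to 0.52. Scaling by total reads or limma-voom moved the share of all genes above 0 from 47.0% to 59.3% and 59.5%, and the count of mitochondrial genes above 0 from 12 to 13 of 20. With 1 pig left out, that count ran from 9 of 20 (without AL44) to 14 of 20 (without AL46). Without the 10 highest genes outside the mitochondrial genome, its share of reads was 10.4% in AL and 11.6% in BI. Counted per kilobase of gene, light-strand genes held 99.3% in AL and 99.4% in BI, rRNA genes 0.00319% and 0.00185%, tRNA genes 91.4% and 91.4% and protein genes 8.63% and 8.58%. Every tRNA gene is shorter than a read, so that the per-kilobase shares set tRNA genes too high beside longer genes. The cause of these changes was not tested, other than that fewer genes enter under a stricter minimum. No paired analysis was possible because the animal numbers are not shared between the breeds. With no filter, limma compared 26 mitochondrial genes, of which 3 had an unadjusted p under 0.05 and 0 an adjusted one (lowest 0.153). Over all 14681 genes of that fit, 936 had an unadjusted p under 0.05 and 40 (0.272%) an adjusted one.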
